A study of Danio rerio with 15 samples.

Results

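Of 57775 transcripts looked for in zebrafish skeletal muscle, 49131 had at least 1 count in a library. Among these, 154 were read at a clear level in some fish and had no count in others. They were chosen by a rule on CPM, the estimated count of a transcript scaled to a library total of 1000000 counts. In each of 14 fish the transcript had either a count of 0, here called off, or at least 2 CPM, here called on, with at least 3 fish in each state. Both states also had to occur among the 4 scaf1-/- double diet fish. In all, 286 transcripts were all-or-none across the 14 fish, and 132 of them had 1 state in the scaf1-/- double diet group and were left out. The rule allowed up to 200 members and 154 met it, so every one was kept.

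Scaf1 is an assembly factor that joins respiratory complexes III and IV into supercomplexes, and muscle relies on this respiratory chain for much of its ATP. The fish were adult females, 7 months of age when the diets began. The scaf1-/- fish were homozygous for the CRISPR/Cas9 null allele of the Δ1 line, and the scaf1+/+ fish came from its wild-type sibling line of the same founder and AB parents. Fish of each genotype received a double diet (5 feeds per day in the labels) or a standard diet (3 feeds per day) for 6 weeks, which gave scaf1-/- double diet (fish 2, 3, 6 and 7), scaf1+/+ double diet (2, 3 and 4), scaf1-/- standard diet (6, A, B and C) and scaf1+/+ standard diet (6, 7, B and C), 1 library per fish. Both genotypes were kept as in-crossed lines, so relatedness among the fish of a genotype and genotype itself cannot be told apart. Diets were given by tank in the study's methods, and the tank of each fish is not stated. Effects of tank and of diet therefore cannot be told apart either.

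Skeletal muscle holds many cell types besides its fibres, and bulk RNA does not tell apart a transcript made by fewer cells from one made at a lower level per cell. Most genes give several transcripts that share exons, and closely related genes share sequence too. The quantifier used here divides each read that fits several transcripts among them by likelihood, so a transcript can receive nearly all or nearly none of the reads it shares with another. The deposited values carry Ensembl transcript identifiers and are not paired with genes, so the members are named by identifier.

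Library totals were 11671308 to 15844496 counts in the 14 fish, where 2 CPM was 23.3 to 31.7 counts, and 3 counts, the upper limit that a count of 0 allows for counting error, were 0.189 to 0.257 CPM. The library of scaf1+/+ standard diet fish C had 4045333 counts and 15655 detected transcripts, against 27748 to 35800 in the other libraries. It was not used to choose the members and is given separately below. The defining markers of muscle and of other cell types were not examined, because the identifiers name no gene.

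The members filled 2156 combinations of transcript and fish, of which 1266 (58.7%) were on and 890 were off. On values ran from 2.00 to 546 CPM with a median of 8.27. The smallest estimated count behind an on value was 24, in ENSDART00000144121.2. A member was on in 3 to 11 fish. The largest class, 39 members, was on in 11 fish and off in 3, the fewest the rule allowed, and 10 members were on in 3 fish. Within the scaf1-/- double diet group, 54 members were on in 1 fish, 60 in 2 fish and 40 in 3 fish. At the edge of the rule, ENSDART00000183657.1, ENSDART00000144121.2 and ENSDART00000059752.6 had lowest on values of 2.00144, 2.00293 and 2.01091 CPM. Just outside it, ENSDART00000182998.1, ENSDART00000182721.1 and ENSDART00000190324.1 had 1.99994, 1.97064 and 1.94178 CPM.

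**Figure D1:**
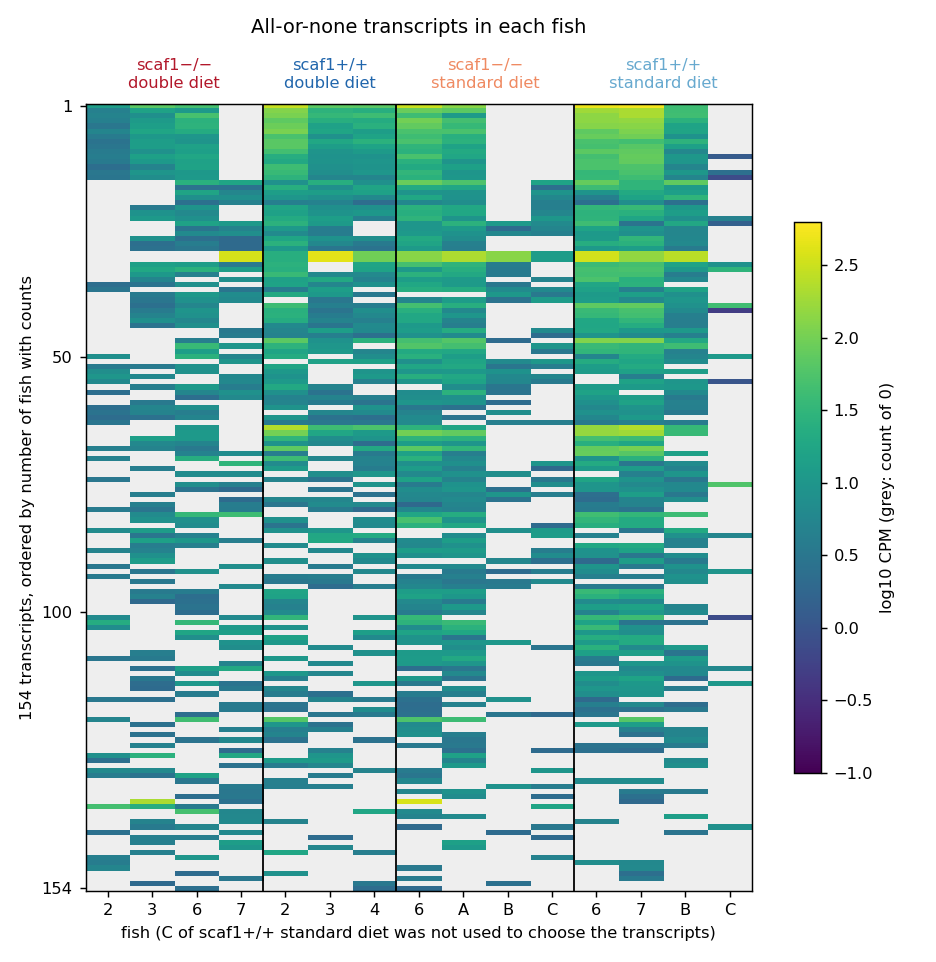
CPM of the 154 all-or-none transcripts (rows, ordered by the number of fish with counts and then by pattern) in each of the 15 fish (columns, by group), on a log10 colour scale with grey for a count of 0. The grey block at the top marks the transcripts off in scaf1-/- double diet fish 7 and scaf1-/- standard diet fish B and C, and the last column, scaf1+/+ standard diet fish C, is grey in 136 of 154 rows.

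The states differed widely between fish of the same group. In scaf1-/- double diet fish 2, 3, 6 and 7, 50, 82, 94 and 68 members were on, against 107, 90 and 90 in scaf1+/+ double diet fish 2, 3 and 4. In scaf1-/- standard diet fish 6, A, B and C, 127, 123, 38 and 49 were on, against 119, 126 and 103 in scaf1+/+ standard diet fish 6, 7 and B. On the double diet the mean was 73.5 ± 18.9 members (SD, n = 4) for scaf1-/- fish, against 95.7 ± 9.81 (SD, n = 3) for scaf1+/+ fish. On the standard diet it was 84.3 ± 47.3 (SD, n = 4) for scaf1-/- fish, against 116 ± 11.8 (SD, n = 3) for scaf1+/+ fish. The groups overlapped in the standard diet and in the double diet, and no test was made, since these fish chose the members. Every member also had to be off in some and on in other scaf1-/- double diet fish, which bears on the mean of that group. The standard diet difference, -31.75 members, rested on fish B and C. It was -11.0 when fish B, and -17.0 when fish C, of the scaf1-/- standard diet group was left out and the members were chosen again, and 6.83 when both were left out.

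**Figure D2:**
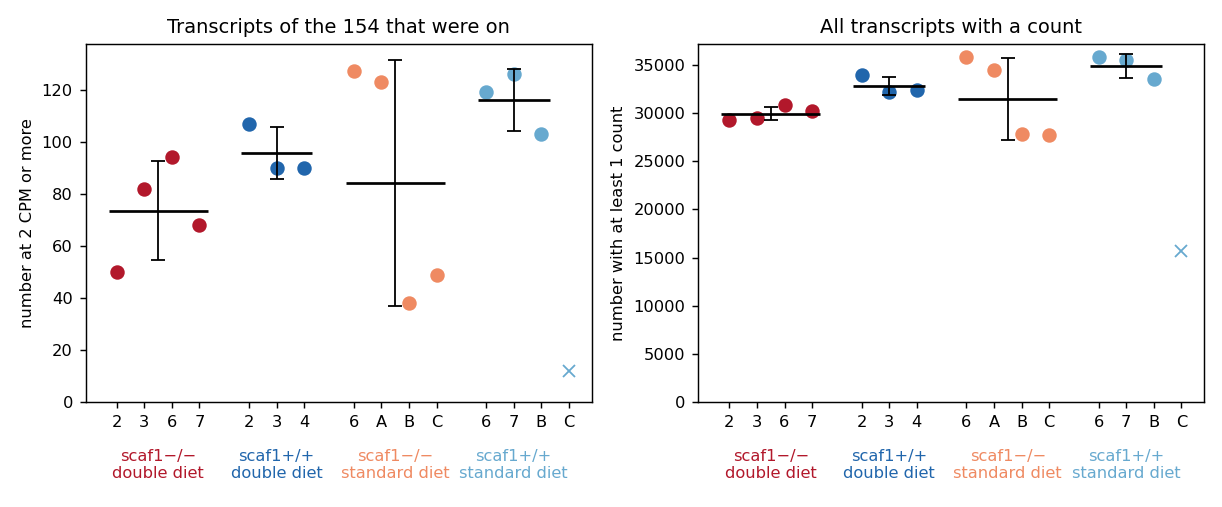
Number of the 154 transcripts that were on (left) and number of all transcripts with at least 1 count (right) in each fish, as points, with the mean and SD of each group as line and bars. The cross is scaf1+/+ standard diet fish C, which is in no mean. Fish B and C of the scaf1-/- standard diet group, with 38 and 49 members on, were also the fish with the fewest detected transcripts of the 14.

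The number of members on moved with the number of transcripts detected in the library as a whole. Detected transcripts were 29270, 29469, 30839 and 30236 in scaf1-/- double diet fish 2, 3, 6 and 7, against 33902, 32212 and 32342 in scaf1+/+ double diet fish 2, 3 and 4. They were 35800, 34455, 27848 and 27748 in scaf1-/- standard diet fish 6, A, B and C, against 35766, 35460 and 33493 in scaf1+/+ standard diet fish 6, 7 and B. The 4 fish with the most members on (scaf1-/- standard diet 6 and A, scaf1+/+ standard diet 6 and 7) were also the 4 with the most detected transcripts. A further measure moved the other way: transcripts on in all 14 fish held 96.8% of the counts in each of scaf1-/- standard diet fish B and C, and 80.6% in scaf1+/+ standard diet fish 7. The part of detection and of library composition in the states was not tested.

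A group could also be read by how uniform its fish were. Of the 154 members, 51 were on in all 3 scaf1+/+ double diet fish, 16 off in all 3 and 87 in both states. In the scaf1-/- standard diet group 13 were on in all 4 fish, 4 off in all 4 and 137 in both states, against 85 on in all 3 fish, 14 off in all 3 and 55 in both states in scaf1+/+ standard diet fish 6, 7 and B. Groups of 4 have more chances to hold both states than groups of 3. All 154 are in both states in scaf1-/- double diet fish because the rule asked for it.

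The most abundant members were 2 transcripts with one and the same signal. ENSDART00000192719.1 and ENSDART00000182393.1, each 507 bases long, had equal estimated counts in all 15 libraries, so they are read here as 1 signal. Each had 0, 0, 0 and 358 CPM in scaf1-/- double diet fish 2, 3, 6 and 7, against 23.8, 443 and 95.8 CPM in scaf1+/+ double diet fish 2, 3 and 4. Each had 134, 212, 135 and 12.8 CPM in scaf1-/- standard diet fish 6, A, B and C, against 344, 155, 257 and 0 CPM in scaf1+/+ standard diet fish 6, 7, B and C. The signal was thus off in 3 of 4 scaf1-/- double diet fish, 1 of them with a deposited estimate above 0 that rounded to 0. In the other one, fish 7, it was near its highest. The double diet groups overlapped through that fish, and the standard diet groups overlapped as well.

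A set of 15 members shared one pattern, off in scaf1-/- double diet fish 7 and scaf1-/- standard diet fish B and C and on in the other 11 fish. ENSDART00000188660.1 (3023 bases) led them with 13.1, 67.8, 48.4 and 0 CPM in scaf1-/- double diet fish 2, 3, 6 and 7, against 289, 68.7 and 67.4 CPM in scaf1+/+ double diet fish 2, 3 and 4. Its standard diet values were 308, 135, 0 and 0 CPM in scaf1-/- fish 6, A, B and C, against 485, 546, 41.4 and 0 CPM in scaf1+/+ fish 6, 7, B and C. Between its off fish and its highest fish lay a graded range, with the lowest on value 41.6 times under the highest.

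The members of the pattern shared the fish with the lowest on value and, for most, the fish with the highest. All 15 had their lowest on value in scaf1-/- double diet fish 2. Their highest value was in scaf1+/+ standard diet fish 7 for 13 of them and in scaf1+/+ double diet fish 2 for 2. ENSDART00000185732.1 (912 bases) had 4.46 CPM in scaf1-/- double diet fish 2, against 206 CPM in scaf1+/+ standard diet fish 7. ENSDART00000144373.2 (821 bases) had 5.05 CPM in the first of these fish and 207 CPM in the second. ENSDART00000165116.2 (6248 bases) had 4.46 and 154 CPM in these fish, and ENSDART00000026178.8 (5511 bases) had 3.24 and 135 CPM.

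Summed over the 15, the level was 65.5, 226, 305 and 0 CPM in scaf1-/- double diet fish 2, 3, 6 and 7, against 1173, 275 and 306 CPM in scaf1+/+ double diet fish 2, 3 and 4. It was 969, 500, 0 and 0 CPM in scaf1-/- standard diet fish 6, A, B and C, against 1622, 1944, 283 and 4.45 CPM in scaf1+/+ standard diet fish 6, 7, B and C. Even the lowest on fish, scaf1-/- double diet 2, gave 1012 counts to the 15 together. The 15 spanned 429 to 6248 bases with a median of 2652, and 3 of them had a count in scaf1+/+ standard diet fish C.

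**Figure D3:**
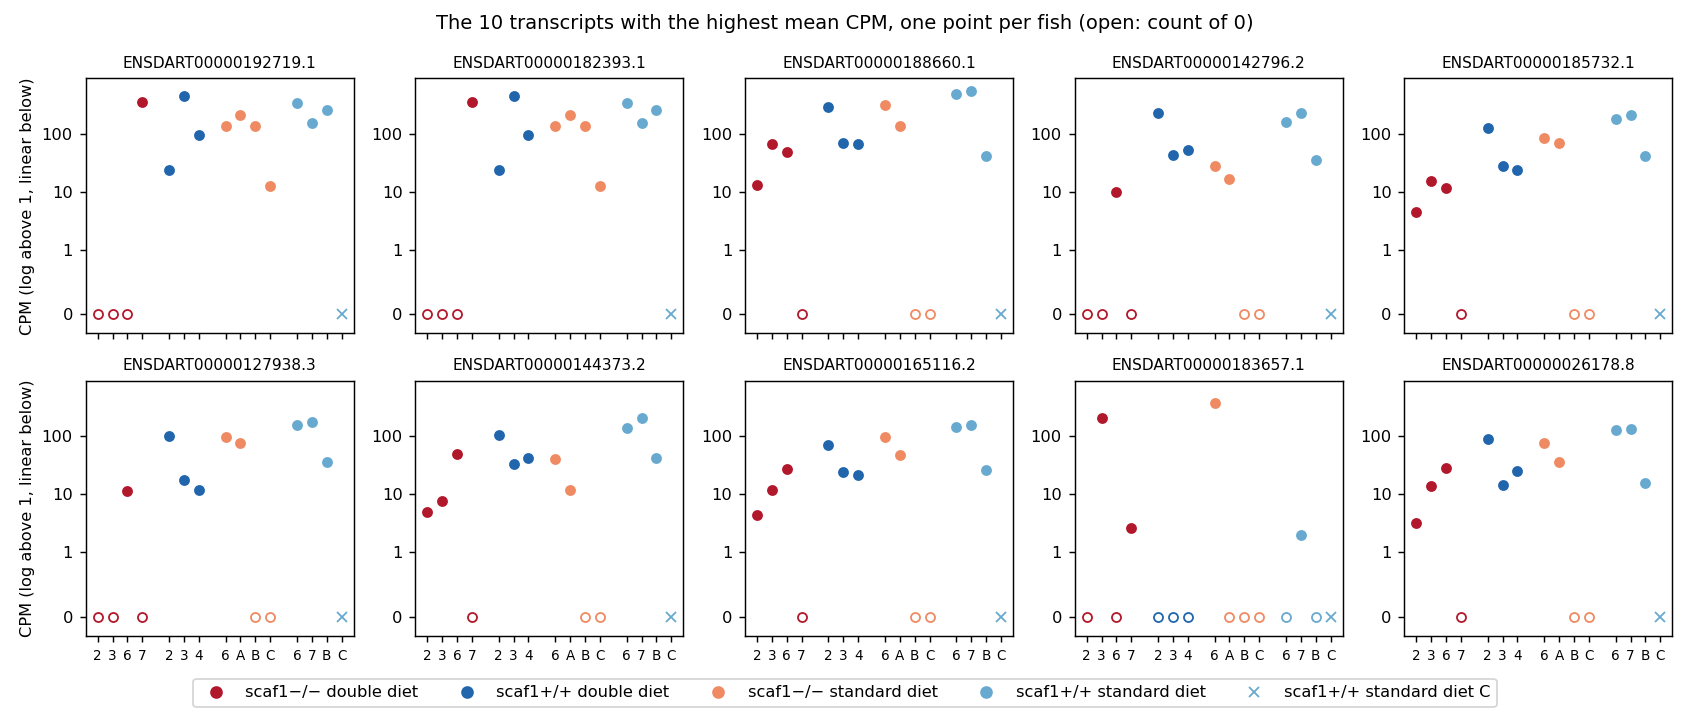
CPM of the 10 members with the highest mean CPM, 1 point per fish (open circles are counts of 0, the cross is scaf1+/+ standard diet fish C), on an axis that is linear below 1 and logarithmic above. ENSDART00000192719.1 and ENSDART00000182393.1 have the same values in every fish, and ENSDART00000183657.1 is the 1 transcript of the 10 that is off in all 3 scaf1+/+ double diet fish.

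Nearby patterns held some of the same fish. ENSDART00000142796.2 (956 bases) and ENSDART00000127938.3 (2249 bases) were off in the same 3 fish and also in scaf1-/- double diet fish 2 and 3. The one had 9.90 CPM and the other 11.3 CPM in scaf1-/- double diet fish 6, against 231 and 100 CPM in scaf1+/+ double diet fish 2. A set of 5 was off in scaf1-/- double diet fish 2 and 7 and scaf1-/- standard diet fish B and C. Their leading member, ENSDART00000160894.2 (3031 bases), had 0, 2.55, 5.47 and 0 CPM in scaf1-/- double diet fish 2, 3, 6 and 7, against 39.7, 4.31 and 4.15 CPM in scaf1+/+ double diet fish 2, 3 and 4. It reached 46.8 and 24.3 CPM in scaf1-/- standard diet fish 6 and A, against 70.9, 77.2 and 8.31 CPM in scaf1+/+ standard diet fish 6, 7 and B. The next of them, ENSDART00000181248.1 (2459 bases), had 3.82 and 9.23 CPM in the scaf1-/- double diet fish where it was on.

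Other sets of equal pattern took other fish. Another 5 were off in scaf1-/- double diet fish 2 and 3 and scaf1-/- standard diet fish B. They were led by ENSDART00000175613.2 (5346 bases), with 25.4 and 17.1 CPM in scaf1-/- double diet fish 6 and 7, against 8.24, 24.3 and 8.08 CPM in scaf1+/+ double diet fish 2, 3 and 4. Its standard diet values were 85.4, 54.4, 0 and 16.2 CPM in scaf1-/- fish 6, A, B and C, against 80.4, 30.2, 73.4 and 0 CPM in scaf1+/+ fish 6, 7, B and C. ENSDART00000173345.2 (5193 bases), the second of the set, had 2.73 and 2.76 CPM in those scaf1-/- double diet fish, near the limit for on. A set of 3, led by ENSDART00000151878.2 (4920 bases) and ENSDART00000169030.2 (6557 bases), was off in scaf1-/- double diet fish 2 and 7 and scaf1-/- standard diet fish B. Another 3, led by ENSDART00000185783.1 (4898 bases) and ENSDART00000180586.1 (1548 bases), were off in scaf1-/- double diet fish 2 and 3 and scaf1+/+ double diet fish 4, and on in all 7 standard diet fish that the rule used.

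In all, the 154 members had 118 distinct patterns over the 14 fish. Of these, 105 were held by 1 member each, and 13 were shared by 49 members. Among the 13, 1 was held only by ENSDART00000192719.1 and ENSDART00000182393.1, which are read above as 1 signal. No pair out of 11781 was on and off in exactly opposite fish (0 pairs), and 14 pairs were opposite in 13 of the 14 fish. So the states did not fall into a single division of the fish.

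Transcripts with a pattern of their own included the most extreme one. ENSDART00000183657.1 (1950 bases) was on in 4 fish of 3 groups. It had 208 and 2.61 CPM in scaf1-/- double diet fish 3 and 7, 371 CPM in scaf1-/- standard diet fish 6 and 2.00 CPM in scaf1+/+ standard diet fish 7. Its highest on value was 185 times its lowest, the largest ratio of the 154. The last member by mean CPM, ENSDART00000188283.1 (7013 bases), had the smallest, 1.17, with 2.44 CPM in scaf1-/- double diet fish 6, 2.32 CPM in scaf1+/+ double diet fish 4 and 2.08 CPM in scaf1-/- standard diet fish 6.

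Among the fish where a member was on, its level still varied. The ratio of the highest to the lowest on value had a median of 5.69 over the members, and the coefficient of variation had a median of 0.584. Over 8526 transcripts with at least 2 CPM in all 14 fish the median coefficient of variation was 0.415. For the 7776 other transcripts with a mean CPM between the members' quartiles it was 0.509, over the fish with at least 2 CPM. For the 2528 of these with at least 2 CPM in all 14 fish it was 0.403. The 49 members with shared patterns had a median of 0.760 and the 105 with their own pattern 0.508. Since the rule used these values, they are given as a description.

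The fish can be compared by the share of the 154 members in the same state. Over the 91 pairs of fish the share was 29.9% to 86.4%, with a median of 52.6%. Fish 6 and 7 of the scaf1+/+ standard diet group were the most alike (86.4%), followed by scaf1-/- standard diet fish 6 and scaf1+/+ standard diet fish 7 (85.1%), a pair that crosses genotype. Least alike were scaf1-/- double diet fish 3 and 7 (29.9%). Within groups the share was 29.9% to 57.1% in scaf1-/- double diet, 61.0% to 63.0% in scaf1+/+ double diet, 31.8% to 79.2% in scaf1-/- standard diet and 70.8% to 86.4% in scaf1+/+ standard diet fish. The rule itself lowers the share within the scaf1-/- double diet group, and fish with many members on are bound to share states, so no test was made.

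**Figure D4:**
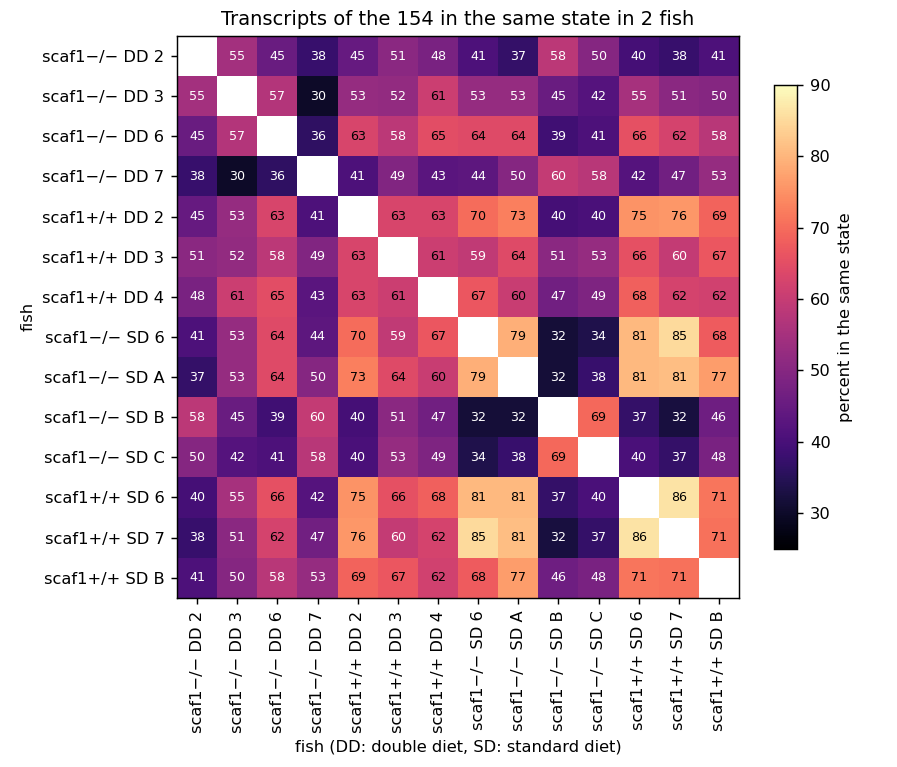
Percent of the 154 transcripts in the same state for each pair of the 14 fish, with double diet (DD) and standard diet (SD) fish in group order on both axes. The brightest block joins scaf1-/- standard diet fish 6 and A with scaf1+/+ standard diet fish 6 and 7, and fish B and C of the scaf1-/- standard diet group are dark against those 4.

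Fish that carried the same mark in the labels were not alike throughout. The pair marked 6 on the standard diet, scaf1-/- and scaf1+/+, shared 80.5% of states and the pair marked B 46.1%. On the double diet the pairs marked 2 and 3 shared 44.8% and 51.9%, under the median of all pairs.

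The length of the transcripts and the form of their estimates were not used by the rule. The members had a median length of 3409.5 bases, with quartiles of 1919.75 and 5722.75, against 2116 bases for all 26970 transcripts tested and 2248.5 bases for the 7776 other transcripts, tested or not, whose mean CPM lay between the members' quartiles of 2.84 and 11.7 CPM. Estimated counts that are not whole numbers show that at least part of the reads were divided among transcripts. Of the members' on values, 1227 of 1266 (96.9%) were not whole within 0.001 counts, against 71.9% of values of at least 2 CPM among the tested transcripts and 72.0% among the 7776 of similar mean CPM. In 133 members every on value was divided in this way, and in none (0) was every on value whole.

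The off values also differed in form. Of the 890, 445 (50%) were not exactly 0 in the deposited estimates but rounded to 0. Among tested transcripts 15.6% of rounded zeros were of this kind, and 28.3% among the 7776 transcripts of similar mean CPM. The median of the 445 estimates was 9.67e-05 counts, 283 were under 0.001 and the highest was 0.465, so some reads were compatible with the transcript but almost none of their weight was given to it. In 109 members at least 1 off value was of this kind, in 33 every off value, and in 45 every off value was exactly 0. By pattern, the share was 53.5% of 708 off values in members with their own pattern, 36.3% of 182 in those with a shared pattern, and 24.4% of 45 in the set of 15. These shares are descriptions, as the values of a transcript in several fish are not independent.

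**Figure D5:**
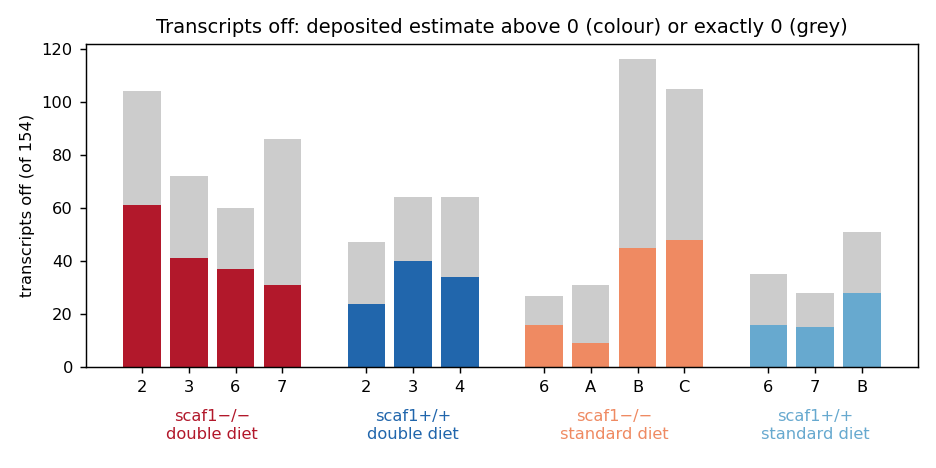
Number of the 154 transcripts off in each of the 14 fish, split into those with a deposited estimate above 0 that rounded to 0 (coloured) and those at exactly 0 (grey). The coloured share was 29.0% to 62.5% by fish, with a coloured part in every fish.

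The 1 library that the rule did not use, scaf1+/+ standard diet fish C, had a count for 18 of the 154 members (11.7%, exact binomial 95% interval 7.08% to 17.8%). The interval treats the members as independent, which they are not, since 49 of them shared patterns. It may thus be too narrow, and it does not cover differences between fish. Of the 18, 17 had at least 3 counts and 12 had at least 2 CPM. The other 136 (88.3%) were at 0, against 46.8% of the tested transcripts and 39.6% of the 7776 transcripts of similar mean CPM. Among those of the 7776 that were also on in all 14 fish it was 15.4%. Of the 85 members on in all 3 other fish of its group 11 had a count, and of the 14 off in all 3 others 1 had one. In this library 2 CPM was 8.09 counts and a count of 0 allows up to 0.742 CPM. The low number of transcripts detected in this library as a whole stands beside this result, and its part was not tested.

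The 5 members highest in that library kept no common pattern in the other fish. ENSDART00000115408.5 (5457 bases) had 56.6 CPM in scaf1+/+ standard diet fish C and 9.43, 6.08 and 5.91 CPM in fish 6, 7 and B of the group. ENSDART00000160894.2 had 42.5 CPM in fish C, within the range of its group. ENSDART00000168355.2 (4691 bases) had 29.9 CPM, ENSDART00000074781.5 (4915 bases) 11.4 CPM and ENSDART00000131423.2 (434 bases) 10.4 CPM.

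Genotype and diet were compared on all 26970 transcripts with edgeR's quasi-likelihood test, with all 15 libraries in the fit. All 154 members passed the filter on low counts. At an adjusted p under 0.05 with a log2 fold change over 1 in size, 0 members were called for genotype in the standard diet, genotype in the double diet, the effect of diet within scaf1-/- fish, the same within scaf1+/+ fish, and the interaction of genotype with diet, and the background over all transcripts was 0.0% in each. All of these contrasts use values of the 14 fish that chose the members. Those with scaf1-/- double diet fish are also bound by the demand for both states in that group. The counts of members below are therefore descriptions. At an unadjusted p under 0.05 the members numbered 6 for genotype in the standard diet (background 5.9%), of which 5 were higher and 1 was lower in scaf1-/-. They numbered 11 for genotype in the double diet (background 5.05%), 4 for diet in scaf1-/- (5.69%), 9 for diet in scaf1+/+ (3.9%) and 6 for the interaction (3.87%). These were 2.60% to 7.14% of the 154 members, near the backgrounds. With the replicate mark of the labels as a block in the edgeR fit, 0 members were called in each comparison, but the counts at an unadjusted p under 0.05 stood above their backgrounds. They were 18 members (11.7%) for genotype in the standard diet against a background of 3.39%, and 33 (21.4%) for genotype in the double diet against 3.52%. For diet the block gave 16 members (10.4%) in scaf1-/- fish against 4.7% and 21 (13.6%) in scaf1+/+ fish against 1.87%, and for the interaction 18 (11.7%) against 1.87%. The balance of direction for genotype in the standard diet also turned, with 7 of the 18 higher and 11 lower in scaf1-/-. In that fit scaf1+/+ double diet fish 4 and scaf1-/- standard diet fish A, alone with their marks, add nothing to the comparison. Only marks 6 and 7 occur on both diets, so its diet comparisons rest on links through those marks. A coefficient for each mark beside each group leaves few libraries to estimate the spread. The members were also chosen on these values, so their counts above background are a description.

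DESeq2, run on the same libraries, called 5 members for genotype in the standard diet (background 0.108%), 6 for genotype in the double diet (0.23%), 4 for diet in scaf1+/+ (0.0868%), 0 for diet in scaf1-/- (0.304%) and 0 for the interaction (0.0827%). Of the 154 members 147 had a DESeq2 p-value, and the backgrounds above are shares of the 48364 transcripts with one. An adjusted p was given to 27601 to 34080 of these, by comparison. The 5 of the first comparison, named after their values were seen, each had a count in 1 of 4 scaf1-/- standard diet fish and in none of the scaf1+/+ standard diet fish. ENSDART00000150510.3 had 16.5 CPM in fish C of the scaf1-/- standard diet group and ENSDART00000187575.1 had 4.88 CPM in the same fish. In fish A of that group ENSDART00000183224.1 had 15.2 CPM and ENSDART00000101147.5 had 14.4 CPM, and ENSDART00000187620.1 had 6.19 CPM in fish 6. Their DESeq2 adjusted p was 0.000157 for ENSDART00000150510.3 and 0.00558 for ENSDART00000187620.1, the lowest and the highest of the 5, where edgeR gave adjusted p-values of 0.846 and 0.904. Each of these calls rests on a single fish. So do those of ENSDART00000183224.1, ENSDART00000187620.1 and ENSDART00000193292.1 for diet in scaf1+/+. The call of ENSDART00000193292.1 for genotype in the double diet does as well. The other calls had counts in 2 or 3 fish of 1 group and in none of the other. With scaf1+/+ standard diet fish C left out, DESeq2 called 5 members for genotype in the standard diet (background 0.331%), 7 for genotype in the double diet (0.58%), 1 for diet in scaf1-/- (0.741%), 6 for diet in scaf1+/+ (0.15%) and 2 for the interaction (0.0905%).

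A second reading was whether all values of one group lay on one side of the other. For genotype in the standard diet, with scaf1+/+ fish C left out, 8 members (5.19%) had all scaf1-/- values below all scaf1+/+ values, against 3.89% of all tested transcripts, and 1 had all above, against 1.21%. With fish C included the numbers were 0 (background 0.467%) and 1 (background 0.682%). That 1, named for this result, was ENSDART00000167449.2 (2837 bases). It had 24.0, 18.9, 5.97 and 5.60 CPM in scaf1-/- standard diet fish 6, A, B and C, against 0, 4.15, 0 and 0 CPM in scaf1+/+ standard diet fish 6, 7, B and C. Its log2 fold change was 4.09 ± 1.72 (edgeR quasi-likelihood test, unadjusted p = 0.0323, adjusted p = 0.846), so it did not pass. The ± value is an approximate SE, derived here from the fold change and the F statistic of the test. On the double diet it had 10.03, 5.84, 0 and 5.83 CPM in scaf1-/- fish 2, 3, 6 and 7, against 8.53, 0 and 10.9 CPM in scaf1+/+ fish 2, 3 and 4, where the groups overlapped.

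Between double diet and standard diet scaf1+/+ fish, 10 members (6.49%) were lower in all double diet fish when standard diet fish C was left out, against a background of 12.1%, and 0 were higher, against 3.33%. With fish C included 0 were lower (background 1.16%) and 0 higher (background 2.04%). These counts too use fish that chose the members. Where scaf1-/- double diet fish entered the comparison, the demand for both states in that group bears on the count as well. For genotype in the double diet 9 members were lower (background 9.83%) and 0 higher (background 2.24%). For diet in scaf1-/- 1 was lower (background 2.55%) and 0 higher (background 1.71%). Both counts of 0 higher were fixed by the rule, since every member had a count of 0 in some scaf1-/- double diet fish. They are not results, and setting them against their backgrounds tells nothing. No member was on in all fish of one genotype and off in all of the other within the standard diet. Among the 154, 3 members, named after their values were seen, were off in all 3 scaf1+/+ double diet fish and on in scaf1+/+ standard diet fish 6, 7 and B. They belong to the 10 lower members above, whose share of 6.49% was under the background of 12.1%. The share of all tested transcripts with this stricter pattern was not counted, so the 3 members are given as a description.

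The clearest of these was ENSDART00000180834.1 (8820 bases), with 0 CPM in scaf1+/+ double diet fish 2, 3 and 4, against 42.9, 33.1, 40.0 and 0 CPM in scaf1+/+ standard diet fish 6, 7, B and C. In scaf1-/- fish it had 0, 6.81, 34.4 and 42.3 CPM on the double diet (fish 2, 3, 6 and 7), against 17.9, 22.8, 0 and 0 CPM on the standard diet (fish 6, A, B and C). Setting each double diet library to 3 counts, the estimated scaf1+/+ double diet level was at least 132-fold lower than the standard diet mean, or at least 176-fold lower with standard diet fish C left out. These bounds allow for counting error only, not for how shared reads were divided among transcripts. Its adjusted p for diet in scaf1+/+ was 1 with edgeR (unadjusted p = 0.00739) and 0.0277 with DESeq2. All 6 of its off values among the 14 fish were estimates above 0 that rounded to 0.

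The other members of this kind were lower, and their fold bounds carry the same limit. ENSDART00000141404.2 (1289 bases) had 0 CPM in the 3 scaf1+/+ double diet fish, against 15.9, 3.04, 2.74 and 0 CPM in scaf1+/+ standard diet fish 6, 7, B and C, at least 24.6-fold lower. It was on at 22.6 and 33.8 CPM in scaf1-/- double diet fish 2 and 6, against 28.3 and 38.0 CPM in scaf1-/- standard diet fish 6 and A. ENSDART00000181339.1 (6540 bases) had 0 CPM in the scaf1+/+ double diet fish, against 2.84, 3.04, 3.86 and 0 CPM in scaf1+/+ standard diet fish 6, 7, B and C, at least 11.1-fold lower. The adjusted p of both for diet in scaf1+/+ was 1 (edgeR, quasi-likelihood test), so neither passed.

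Over the 154 members, with all 15 libraries in the fit, the median log2 fold change was -0.29 for genotype in the standard diet (-0.09 over all tested transcripts). It was -0.71 for genotype in the double diet (-0.09), -0.50 for diet in scaf1-/- (-0.10) and -0.22 for diet in scaf1+/+ (-0.10). With scaf1+/+ standard diet fish C left out, it was -0.52 for genotype in the standard diet (-0.10) and -0.55 for diet in scaf1+/+ (-0.16). In that fit it was -0.70 for genotype in the double diet (-0.09) and -0.50 for diet in scaf1-/- (-0.10). The rule kept every member off in some and on in other scaf1-/- double diet fish, and asked this of no other group. It therefore bears on the medians of the contrasts with that group, and all these medians are descriptions. Median-ratio scaling moved the median of all transcripts for genotype in the standard diet to -0.28, with the members at -0.43. Summed over the 154, the level was 285, 829, 1077 and 1188 CPM in scaf1-/- double diet fish 2, 3, 6 and 7, against 2809, 1716 and 1087 CPM in scaf1+/+ double diet fish 2, 3 and 4. It was 3299, 2332, 456 and 303 CPM in scaf1-/- standard diet fish 6, A, B and C, against 4581, 4620 and 1642 CPM in scaf1+/+ standard diet fish 6, 7 and B. The sum overlapped between genotypes in each diet and between diets in each genotype.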

How the data were processed

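Skeletal muscle RNA of 15 female zebrafish was sequenced, 1 library per fish. The authors checked reads with FastQC 0.11.8 and ran kallisto 0.45.0 on the zebrafish cDNA of Ensembl (build 11, release 94), per the labels and the study's methods; what they deposited, for each transcript, is its estimated count beside a length and an effective length that were the same in all 15 files.

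Samples were grouped by their labels. For all steps the estimated counts were made whole by rounding, and CPM was that count divided by the library total. All members were found by the rule given at the start of the report; members, lists and tests were chosen with earlier results of these data known. Comparisons used edgeR 4.0.16 in R 4.3.3 (TMM, filterByExpr with a smallest count of 10, robust quasi-likelihood test, Benjamini-Hochberg adjustment over 26970 transcripts, 1 coefficient per group, all 15 libraries). Common biological coefficient of variation was 0.847. Alternatives were DESeq2 1.42.0, limma 3.58.1 with TPM computed here and a pseudocount of 1 or 0.1 before log2, median-ratio scaling, no filter, an adjusted p alone, the replicate block, other limits for on and off, and leaving out each library. On simulated counts of the 26970 transcripts for genotype in the standard diet, edgeR found 2 of 100 transcripts changed by 2 and 55 of 100 changed by 4 on the log2 scale, with 2 false calls, and DESeq2 found 13 and 68 with 39 false calls. Each simulated transcript varied around a single mean, shifted in the scaf1-/- standard diet group for the changed ones. None was set to switch between off and on within a group, so these rates do not measure recovery of the members.

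Same-mark fish of the 2 genotypes had correlated deviations on the standard diet (r = 0.43 for mark 6, 0.11 for B and 0.39 for C, across transcripts), each over the bound of 0.1, and not on the double diet (r = -0.1 and -0.17). Fish of different marks reached as much: scaf1-/- 6 with scaf1+/+ 7 had r = 0.52, B with C 0.38, A with 6 0.36 and A with 7 0.34. The correlation therefore did not follow the mark, and the block is given beside the fit without it, not as an established pairing. Whether replicates differ by tank is not stated. The transcripts named were the 10 of highest mean CPM, the 2 highest in each of the 5 largest sets of equal pattern, the 5 highest in scaf1+/+ standard diet fish C and the last member; no member met the parts of the rule on genotype and on exactly opposite pairs. The identifiers were not paired with genes, so gene lists, cell type markers and sequences were not used here.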

Additional observations from a re-analysis of the deposited data

Results flagged for a closer look

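ENSDART00000115408.5 had 56.6 CPM in scaf1+/+ standard diet fish C, apart from the 9.43, 6.08 and 5.91 CPM of fish 6, 7 and B: the gap to the next fish was 0.931 of the group's whole range, over the critical value of Dixon's test for 4 samples. In 14 sets of values examined this way, 1 stood apart, and chance marks about 1 in 20. The transcript was named for its high value in fish C, the value that the test judges. The rate of 1 in 20 does not cover that choice, so the result is a description. That library had 4045333 counts, the lowest total, and 15655 detected transcripts, and the part of this in the value was not tested.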

How the results depend on the processing

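The number of all-or-none transcripts depended on the level that counts as on: 428 at 1 CPM, whose 200 highest held 105 of the 154, and 27 at 5 CPM, all among the 154. It was 163 with TMM-scaled totals, 221 with 3 counts or fewer as off, 180 with all 15 libraries, 142 without scaf1-/- standard diet fish B and C (chosen after seeing the data) and 113 to 169 with each library left out in turn. The double diet difference in members on, scaf1-/- minus scaf1+/+, was -50.6 at 1 CPM, -5.25 at 5 CPM and -27.0 to -15.0 with each library left out; the standard diet difference was -55.3 at 1 CPM, -5.42 at 5 CPM, -33.5 with TMM-scaled totals, -46.1 with 3 counts or fewer as off, -3 with all 15 libraries and -46.3 to -11.0 with each left out. The number of members differs between these settings. In each of them the rule kept every member off in some and on in other scaf1-/- double diet fish, which bears on the double diet difference and its sign. DESeq2 called 5 members for genotype in the standard diet, 6 for genotype in the double diet and 4 for diet in scaf1+/+, where edgeR called 0. Without scaf1+/+ standard diet fish C, an alternative chosen after seeing the data, DESeq2 called 5, 7, 1, 6 and 2 in the 5 comparisons, with the backgrounds given in the report. ENSDART00000141404.2 then passed for diet in scaf1+/+, at a log2 fold change of -22.6. It was -8.26 with DESeq2 on all libraries and -8.61 with edgeR. Its counts were 0 in all scaf1+/+ double diet fish, so these estimates do not measure the size of the change. The cause of the difference between DESeq2 and edgeR was not tested. With edgeR or limma, 0 members were called under every other alternative, including each library left out and the replicate block (0 in each comparison), which changed no call. Every result rests on transcript estimates of 3 or 4 fish per group; in 1 of these, total counts were 4045333, and a count of 0 there allows up to 0.742 CPM.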
